A study of Mus musculus with 8 samples.

Results

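Integrins, laminins and focal adhesion genes form the chain that ties a cardiomyocyte to its basement membrane. The set comprised every gene symbol of the count table that names an integrin subunit or integrin-binding protein, a laminin chain, a nidogen, or one of the cytoplasmic adhesion proteins (talins, kindlins, integrin-linked kinase, parvins, focal adhesion kinases, paxillin, p130Cas, CRK proteins, vinculin, zyxin, tensins, filamins) and that had a sum of at least 16 counts over the 8 libraries. Of 70 matching symbols, 22 reached that sum, among 33514 rows of the table, of which 7926 had a count. Members were selected on this measured sum, so their totals are a description; the sum does not use the difference between the groups. ITGA6 (17 counts) and ITGA5 (21) lay just inside the limit, and ITGB5 (9), ITGA1 (7) and TNS2 (7) just outside.

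The libraries came from adult C57BL/6 mouse cardiomyocytes, isolated by enzyme perfusion of the heart, settled by gravity and plated on culture dishes that the labels call laminated. Cells were transfected with a negative-control siRNA (siN, 4 libraries) or an siRNA against Hoxa5, a homeobox transcription factor (siHoxa5, 4 libraries), and 24 h later received phenylephrine, an alpha1-adrenergic agonist that induces hypertrophic growth, for 24 h (100 µM). Phenylephrine was given in both groups, so the comparison asks which adhesion transcripts differ when Hoxa5 is targeted in stimulated cells, and the response to phenylephrine was not measured. Whether the 4 repeats within a group were separate animals or cultures is not stated; p-values therefore reflect only the variation among these libraries, which may be technical.

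As background, integrins are receptors made of an alpha and a beta subunit that bind laminin, fibronectin or collagen outside the cell. Talins and kindlins bind the beta tail and switch the receptor on, while vinculin, filamins and tensins link it to actin; integrin-linked kinase with parvins, and focal adhesion kinase with paxillin, p130Cas and CRK proteins, pass the signal on. In cardiomyocytes these proteins sit in costameres, the rib-like sites that hold the Z-discs to the membrane, and at intercalated discs. Laminin with an alpha2 chain is the main laminin around muscle fibres, and the alpha7 integrin paired with beta1 is its receptor in adult heart muscle.

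Library totals ranged from 560190 to 658192 counts, and the 22 members held 0.555% to 0.600% of them. A library needed 3 counts, 4.56 to 5.36 CPM (counts scaled to library size), to exceed what a count of 0 allows. The siRNA target itself, HOXA5, had 8 counts in all siN libraries and 9 in all siHoxa5 libraries (ratio of rates 1.23, exact 95% interval 0.421 to 3.66, counting error only), so a lower level was not detectable at this depth, and every direction given here is that of libraries labelled siHoxa5 against libraries labelled siN. The siHoxa5 libraries 2 and 4 had the lowest totals (560190 and 574882) and lay at 10.8 and 11.0 on the first principal component, against 2.74 and 4.69 for siHoxa5 libraries 1 and 3 and -7.77 to -6.30 for siN; for the members that turn on them, values without them are also given. All 6 cardiomyocyte markers looked up had counts. So did 6 of 8 fibroblast markers, which summed to 8684 to 11187 CPM and were mostly COL1A1, and 2 of 6 endothelial, 3 of 6 mural and 3 of 6 macrophage and leukocyte markers, at up to 32.7, 30.8 and 1.82 CPM. At 0 in all libraries were endothelial PECAM1, CDH5, VWF and EMCN, fibroblast LUM and TCF21, mural CNN1, RGS5 and PDGFRB and macrophage CD68, ADGRE1 and CD14. The notes name a mouse build, but the table uses human spelling of gene symbols, and the annotation behind the counts is not known. Mouse genes were matched by name, so coordinates, overlaps and promoters given here are those of the mouse gene of that name and may differ from the gene models that were counted.

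Many well-known adhesion genes could not be measured. Of the 70 symbols 31 had 0 counts in every library and 17 had 1 to 15 counts in all; 25 of the 31 name a gene of the mouse annotation, and 5 are antisense or divergent transcripts. Listed at 0 were ILK, integrin-linked kinase, the nidogens NID1 and NID2, the laminin chain LAMA4, integrin ITGB3 and PTK2B, the kinase PYK2 related to focal adhesion kinase. PXN (paxillin) and BCAR1 (p130Cas) had 1 count each, ZYX (zyxin) 3, LAMB2 2, ITGAV 5 and ITGB5 9. PARVA, which binds integrin-linked kinase, had 917 counts, and a listing at 0 does not show that the cells lacked a transcript. Since the sources used here do not say how counts were assigned to these symbols, levels were compared between libraries within a gene. Shares of talin and laminin counts, given further on, were also compared only between libraries. They are shares of counts and not proportions of transcripts. ITGA1, a collagen-binding integrin subunit just under the limit, had no counts in the siN libraries and 6, 0, 1 and 0 in siHoxa5 libraries 1 to 4, so 1 library held most of them.

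**Figure D1:**
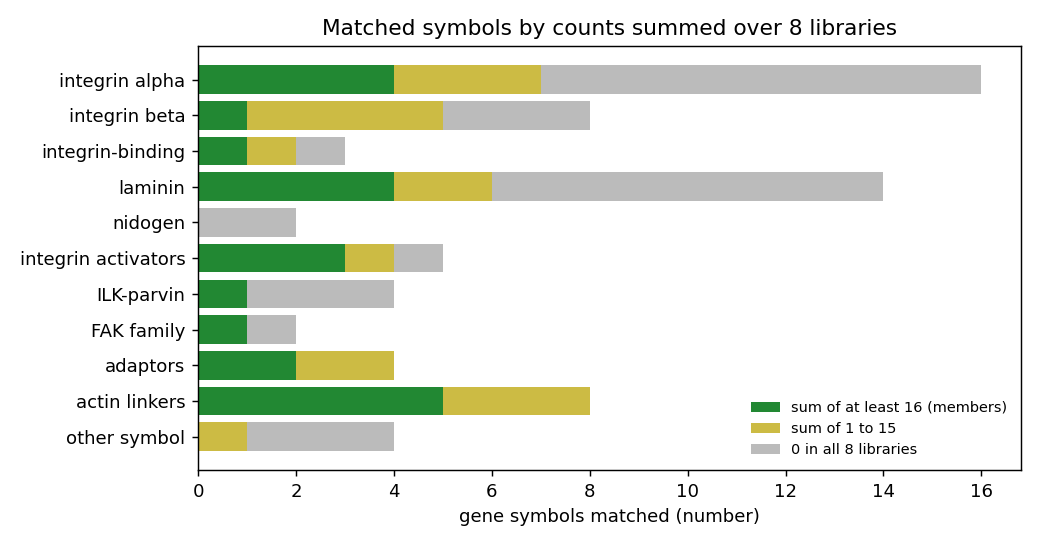
Number of matched gene symbols (horizontal axis) in each role (vertical axis), divided into members with a sum of at least 16 counts, symbols with 1 to 15 counts and symbols at 0 in all 8 libraries. Of the 16 integrin alpha symbols 4 were members, and of the 14 laminin symbols 4. The laminin symbols include the antisense transcripts LAMA5-AS1 and LAMC1-AS1, both at 0. Both nidogens were at 0.

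Of the 22 members, 17 passed the expression filter and were tested; 2 were higher in siHoxa5 libraries (VCL and TLN2), none was lower and 15 did not pass (quasi-likelihood test of edgeR, adjusted p under 0.05 over 3020 genes). With DESeq2 0 of the 12 members given an adjusted p passed, beside 4.77% of 2493 genes, and 4 of the 17 had an unadjusted p under 0.05, beside 14.2% of all genes tested. Over all tested genes 7.12% passed, 3.74% higher and 3.38% lower, so 2 of 17 is near the background. The median log2 fold change of the 17 was 0.12, with a range from -0.27 to 0.66, beside a median of 0.00 (-0.00371) and a range from -1.27 to 1.54 over all tested genes; 12 of the 17 lay above 0, as did 49.4% of all tested genes. An unadjusted p under 0.05 was found for 6 of the 17 members and for 19.6% of all tested genes: VCL, TLN2 and ITGB1BP2 with higher and TLN1, LAMC1 and ITGB1 with lower means in siHoxa5 libraries. In CPM the groups did not overlap for 3 of the 17 (ITGB1BP2 and LAMA2 higher, LAMC1 lower in siHoxa5 libraries). The share over all tested genes was 12.0%, with 6.19% higher and 5.76% lower.

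**Figure D2:**
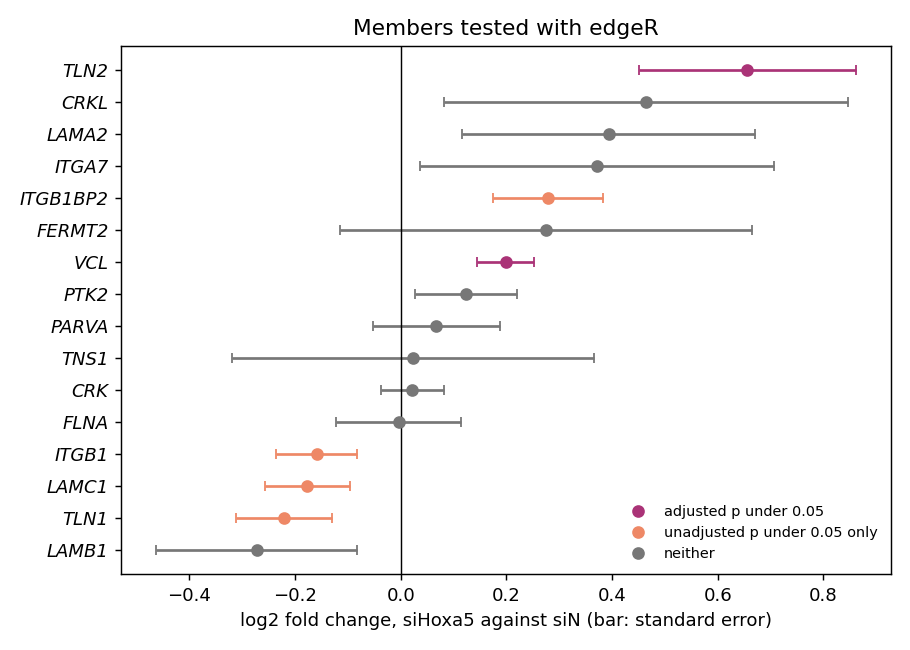
Log2 fold change of siHoxa5 against siN (horizontal axis; points, bars are the standard error) for tested members (vertical axis), coloured by the edgeR test. TLN2 (0.66) and VCL (0.20) passed the threshold over all genes; LAMB1 had the lowest value (-0.27).

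The integrin receptor was measured mainly through its beta1 subunit. ITGB1 encodes integrin beta1, the common partner of most laminin, collagen and fibronectin receptors. The siN libraries 1 to 4 had 591, 624, 631 and 564 CPM (on TMM library sizes), and the siHoxa5 libraries 603, 534, 561 and 455. The siHoxa5 libraries 2, 3 and 4 lay under every siN library while library 1 was in their range, so the groups overlapped. The means were 602 ± 31.2 and 538 ± 62.3 CPM (SD, n = 4 each), and the log2 difference of -0.16 (SE 0.08) did not pass (adjusted p = 0.216 with edgeR). Without siHoxa5 libraries 2 and 4 the difference was -0.04 (adjusted p = 0.862), and without siHoxa5 library 4 alone it was -0.09.

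ITGA7, the alpha7 subunit of the laminin receptor in muscle, had 16.9, 19.0, 20.5 and 15.3 CPM in siN libraries and 26.1, 23.7, 19.6 and 23.6 in siHoxa5 libraries. The siHoxa5 libraries 1, 2 and 4 exceeded all siN libraries, but these levels rest on 10 to 16 counts a library. The log2 difference was 0.37 (SE 0.33, adjusted p = 0.600 with edgeR), so no difference was detectable at this depth. ITGA3, ITGA5 and ITGA6, subunits that pair with beta1 to bind laminin or fibronectin, did not pass the filter. Their summed counts in siN and siHoxa5 were 24 and 19 for ITGA3, 10 and 11 for ITGA5, and 8 and 9 for ITGA6, and every 95% interval of the ratio of rates included equality (0.448 to 1.65 for ITGA3, 0.463 to 3.15 for ITGA5, 0.421 to 3.66 for ITGA6).

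ITGB1BP2 encodes melusin, a muscle protein that binds the beta1 tail and takes part in the response of the heart to mechanical load. It had 232, 222, 224 and 224 CPM in the siN libraries and 251, 284, 263 and 298 in the siHoxa5 libraries. Every siHoxa5 library lay above every siN library, and the siHoxa5 values were spread more widely. The means were 225 ± 4.60 and 274 ± 21.1 CPM (SD, n = 4 each). The log2 fold change was 0.28 (SE 0.10, unadjusted p = 0.00815), which did not pass over all genes (edgeR adjusted p = 0.0860). After removal of library trends that follow transcript length and GC content it was 0.40 and passed (adjusted p = 0.00637). The 2 highest values were those of siHoxa5 libraries 4 and 2, and without both the log2 fold change was 0.19 (adjusted p = 0.464).

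**Figure D3:**
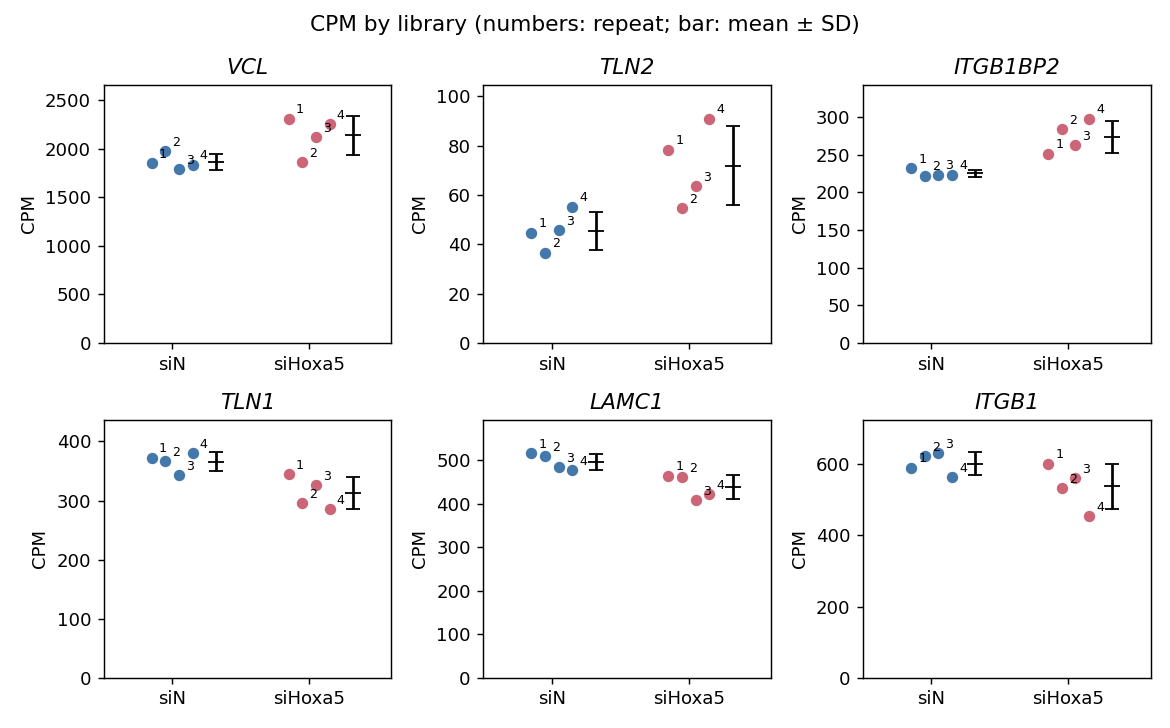
CPM (vertical axes, from 0) of 6 members in each siN and siHoxa5 library; points are libraries, the number is the repeat, and the black bar is the mean ± SD of 4 libraries. For ITGB1BP2 all siHoxa5 libraries (251 to 298 CPM) lie above all siN libraries (222 to 232), and for LAMC1 all lie below.

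Laminin is secreted as a trimer of 1 alpha, 1 beta and 1 gamma chain, and the chains described here are LAMA2, LAMB1 and LAMC1. LAMC1, the gamma1 chain shared by most laminins, had 515, 508, 483 and 476 CPM in the siN libraries and 464, 461, 408 and 422 in the siHoxa5 libraries. All siHoxa5 libraries were below all siN libraries, although the gap between 464 and 476 CPM was small. The means were 496 ± 18.8 and 439 ± 28.1 CPM (SD, n = 4 each); the log2 difference of -0.18 (SE 0.08) did not pass (edgeR adjusted p = 0.184). It was -0.18 also without siHoxa5 libraries 2 and 4.

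LAMB1, the beta1 chain, had 66.1, 79.4, 78.7 and 68.9 CPM in siN libraries against 75.1, 49.2, 55.4 and 61.8 in siHoxa5 libraries. The siHoxa5 libraries 2, 3 and 4 were under all siN libraries and library 1 among them. On the log2 scale the difference was -0.27 (SE 0.19, adjusted p = 0.467 with edgeR), and it was -0.16 without siHoxa5 libraries 2 and 4.

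LAMA2, the alpha2 chain whose loss causes a congenital muscular dystrophy, is described as the alpha partner of these chains and was chosen after its values were seen. It had 21.5, 31.7, 18.9 and 33.7 CPM in siN libraries and 34.3, 34.6, 35.9 and 34.6 in siHoxa5 libraries. The siHoxa5 values were nearly equal and just above the highest siN value, while the siN values were spread widely. The counts themselves overlapped (14, 20, 12 and 22 in siN libraries, 21, 19, 22 and 19 in siHoxa5 libraries). The separation in CPM thus rested on the scaling to library size. With 12 to 22 counts a library the log2 difference of 0.39 (SE 0.28, adjusted p = 0.471 with edgeR) did not pass. As a share of the counts of these 3 chains, LAMA2 made up 3.57%, 5.13%, 3.25% and 5.82% in siN libraries and 5.98%, 6.35%, 7.19% and 6.67% in siHoxa5 libraries. The shares did not overlap, but each library's exact 95% binomial interval was wide (1.69% to 8.68% over the siN libraries, 3.74% to 10.7% over the siHoxa5 libraries), and this contrast was formed after the chains' values were seen and was not tested.

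Of the talins, TLN2 passed the test and TLN1 did not. TLN2, talin 2, is the talin of costameres in mature striated muscle; it rose in siHoxa5 libraries. The siN libraries had 44.6, 36.5, 45.6 and 55.1 CPM and the siHoxa5 libraries 78.4, 54.6, 63.6 and 90.9. Only siHoxa5 library 2 (54.6) fell within the siN range, just under siN library 4 (55.1). The means were 45.5 ± 7.63 and 71.9 ± 16.03 CPM (SD, n = 4 each), which is 0.66 on the log2 scale (SE 0.20, adjusted p = 0.0303 with edgeR). Each library held only 23 to 50 counts of TLN2. The call held under 10 of 20 alternatives. It did not hold with DESeq2 (adjusted p = 0.104), without a filter on low counts (0.0618) or with the length and GC trend removed (0.0676), nor when any 1 of siHoxa5 libraries 1 and 4 and siN libraries 1, 2 and 3 was omitted, while the log2 fold change stayed between 0.53 and 0.76 with any single library omitted. With siHoxa5 libraries 2 and 4 omitted together it was 0.64 (adjusted p = 0.106).

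TLN1, talin 1, is the widely expressed talin. Its values were 372, 367, 343 and 379.9 CPM in siN libraries and 345, 295, 326 and 286 in siHoxa5 libraries, which overlapped only where siHoxa5 library 1 (345) exceeded siN library 3 (343). The means were 365 ± 15.9 and 313 ± 27.3 CPM (SD, n = 4 each), and the log2 fold change of -0.22 (SE 0.09, unadjusted p = 0.0169) did not pass (edgeR adjusted p = 0.138). It was -0.12 without siHoxa5 libraries 2 and 4. Creb3 lies on the other strand of the Tln1 locus with 360 shared exonic bases. CREB3 is listed at 0 in all libraries, and reads from the shared bases cannot be told apart without strand.

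Of all talin counts, TLN2 made up 10.7%, 9.06%, 11.7% and 12.7% in siN libraries and 18.5%, 15.6%, 16.3% and 24.2% in siHoxa5 libraries. All siHoxa5 shares lay above all siN shares, with means of 18.7% ± 3.87 and 11.0% ± 1.55 (SD, n = 4 each). The exact 95% binomial intervals of single libraries overlapped between the groups (5.83% to 17.1% over siN libraries, 10.8% to 30.6% over siHoxa5 libraries). The share was formed after the talins' values were seen and was not tested, and reads that match both talins could be divided between them in ways the files do not show. FERMT2, kindlin 2, the other activator that binds the beta1 tail in heart muscle, had 41 counts in siN and 45 in siHoxa5 libraries (ratio of rates 1.20, 95% interval 0.767 to 1.88), with 23 of the 41 in siN library 4.

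**Figure D4:**
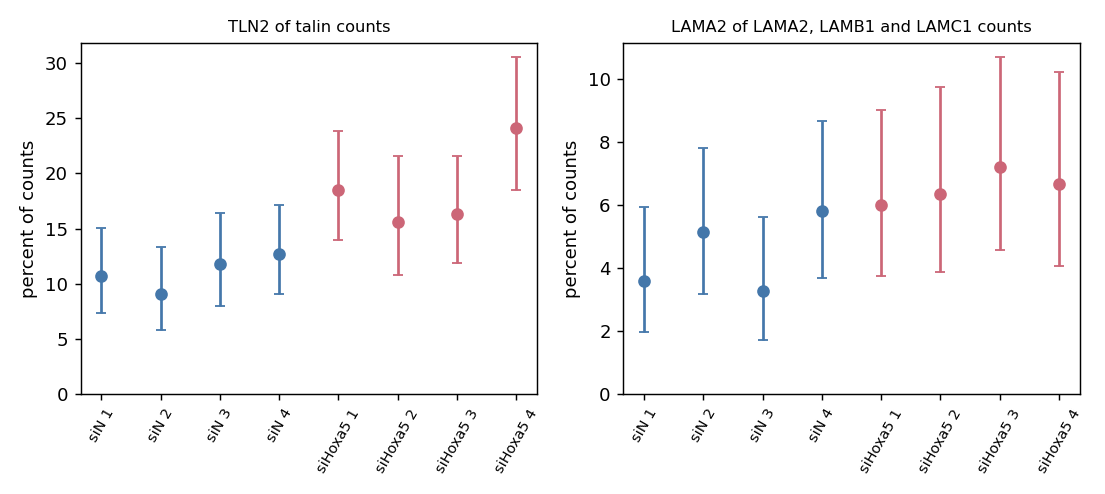
Share of counts in percent (vertical axes, from 0) in each library (horizontal axes; blue siN, red siHoxa5; bars are exact 95% binomial intervals): TLN2 of TLN1 and TLN2 on the left, LAMA2 of LAMA2, LAMB1 and LAMC1 on the right. TLN2 made up 9.06% to 12.7% of talin counts in siN libraries and 15.6% to 24.2% in siHoxa5 libraries.

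The signalling members showed no difference past the threshold. PTK2, focal adhesion kinase, had 275, 284, 290 and 303 CPM in siN libraries and 286, 361, 284 and 329 in siHoxa5 libraries, so only siHoxa5 libraries 2 and 4 exceeded the siN range. Its log2 difference was 0.12 (SE 0.10, adjusted p = 0.528 with edgeR), and -0.01 without those libraries. PARVA, alpha-parvin, which joins integrin-linked kinase to actin, had 178, 164, 198 and 193 CPM in siN libraries. In siHoxa5 libraries 1 to 4 it had 150.2, 173, 207 and 240.1, on either side of the siN values (log2 fold change 0.07, SE 0.12, adjusted p = 0.828; -0.05 without siHoxa5 library 4).

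CRK, an adaptor that docks on phosphorylated p130Cas and paxillin, was the second most counted member, with 5703 counts in all. It had 1186, 1135, 1173 and 1139.7 CPM in siN libraries and 1086, 1282, 1127 and 1215 in siHoxa5 libraries, with no shift between the means (1158 ± 24.8 and 1177 ± 88.3 CPM; log2 fold change 0.02, SE 0.06, edgeR adjusted p = 0.895). The sign of that value turned without siHoxa5 library 2 (-0.02). Its relative CRKL had 35 counts in siN and 44 in siHoxa5 libraries, and a log2 difference of 0.46 (SE 0.38, adjusted p = 0.553). The means of CRKL, 13.6 ± 5.41 and 18.7 ± 6.51 CPM, differed by less than the SD of either group.

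Vinculin, the actin linker that binds talin when it is stretched, was the most counted member (9769 counts in all), and VCL rose. The siN libraries had 1850.25, 1978, 1793 and 1838 CPM, and the siHoxa5 libraries 2312, 1864, 2121 and 2257. The siHoxa5 libraries 1, 3 and 4 lay above every siN library, and library 2 lay within the siN range. The means were 1865 ± 79.4 and 2138 ± 200.1 CPM (SD, n = 4 each), which is 0.20 on the log2 scale (SE 0.05, adjusted p = 0.00991 with edgeR). Without siHoxa5 libraries 2 and 4 it was 0.25 (adjusted p = 2.72e-05 with edgeR). That pair was chosen after the data were seen and includes library 2, the siHoxa5 value within the siN range. The smaller p therefore adds no support for the call. The call was lost with DESeq2 (adjusted p = 0.0564), without siN library 3 (0.0829) and without siN library 4 (0.0550), where the log2 fold changes were 0.20, 0.18 and 0.19.

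Mouse Vcl lies on chromosome 14 (GRCm38, chr14:20929398-21033676, plus strand, GENCODE M21), and Ap3m1 on the other strand shares 2090 exonic bases with it, so reads of that stretch cannot be told apart without strand. AP3M1, which encodes a subunit of an adaptor complex of vesicle transport, had 171 ± 6.10 CPM in siN and 154 ± 16.6 in siHoxa5 libraries (SD, n = 4 each; log2 fold change -0.15, adjusted p = 0.571). Tln2 lies at chr9:67217087-67559703 and Tln1 at chr4:43531519-43562691, both on the minus strand.

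FLNA, filamin A, had 191, 171, 224 and 185 CPM in siN libraries and 204, 158, 228 and 175 in siHoxa5 libraries, the same range (log2 fold change -0.00366, SE 0.12, edgeR adjusted p = 0.989). TNS1, tensin 1, had 96 counts in all and did not pass. TNS3, tensin 3, did not pass the filter and had 29 and 26 counts (ratio of rates 0.979, 95% interval 0.554 to 1.72). Summed markers of the other cell types overlapped between the groups, apart from COL1A1: the summed fibroblast markers other than COL1A1 had 44.4 to 66.1 CPM in siN and 47.3 to 60.4 in siHoxa5 libraries, and the summed endothelial markers 14.2 to 31.7 and 3.64 to 32.7. The 6 cardiomyocyte markers summed to 23892 to 26134 CPM in siN and 33404 to 36681 in siHoxa5 libraries, and the 5 other than MYH6 to 3228 to 3514 and 4071 to 4412, both without overlap. Whether that has a part in the values of VCL or TLN2 was not tested. In these bulk libraries fewer cells of a type and less RNA per cell cannot be told apart.

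Promoter sequences are shown for the 3 members whose window holds a CArG box, the site of serum response factor, a regulator of many actin-linked genes; VCL among them passed the test, LAMA2 and FERMT2 did not. The RefSeq promoter table (GRCm38.p6) matched 13 of the 22 members with 14 windows of 250 bases before to 50 after a start site; TLN2, ITGB1BP2, PTK2, PARVA and LAMC1 were among the 9 without an entry. The sequences are given in the direction of the gene, up to the start site or the first annotated exon. In capitals are the CArG box (first base at -227 in VCL, -39 in LAMA2 and -204 in FERMT2, counted back from the start site) and, in VCL, GGAATG (at -143). The LAMA2 window lies inside the annotated Lama2 gene (chr10:26980036-27619758, GENCODE M21), so its start site is not the outermost annotated one.
VCL, chr14:20929148-20929397, plus strand: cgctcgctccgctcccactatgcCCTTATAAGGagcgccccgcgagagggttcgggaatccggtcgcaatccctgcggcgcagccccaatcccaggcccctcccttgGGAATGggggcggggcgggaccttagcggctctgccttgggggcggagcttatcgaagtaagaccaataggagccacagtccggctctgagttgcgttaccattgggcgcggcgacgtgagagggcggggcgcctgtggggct
LAMA2, chr10:27616943-27617192, minus strand: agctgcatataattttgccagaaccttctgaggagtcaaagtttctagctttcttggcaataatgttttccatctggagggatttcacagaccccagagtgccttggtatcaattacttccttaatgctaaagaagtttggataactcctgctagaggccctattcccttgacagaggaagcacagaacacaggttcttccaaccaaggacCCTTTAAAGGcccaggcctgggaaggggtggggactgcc
FERMT2, chr14:45530119-45530315, minus strand: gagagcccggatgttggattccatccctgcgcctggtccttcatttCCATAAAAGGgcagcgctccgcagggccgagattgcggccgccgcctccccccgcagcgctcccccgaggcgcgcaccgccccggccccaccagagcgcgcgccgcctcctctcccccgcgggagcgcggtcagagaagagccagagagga
A CArG box was thus found in 3 of 14 member windows and in 1.63% of all 32851 windows. GGAATG, a core bound by TEAD factors, was in 3 of 14 (FLNA, ITGB1 and VCL) and in 14.7% of all, and TAAT, the core bound by many homeodomain proteins, in 5 of 14 (FERMT2, FLNA, ITGA5, LAMA2 and LAMB1) and in 58.0% of all. Both strands were searched, the 3 motifs were chosen with the results known, and a match is a description of the letters only.

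Other genes of the pathway were taken from 3 lists of genes that are not members. Of 60 other adhesion complex genes 24 were tested, 1 was lower and none higher (median log2 fold change -0.03). ACTN1, an alpha-actinin of non-muscle adhesions, fell by 0.40 on the log2 scale. ACTN4, another alpha-actinin of this list, had means of 1066 CPM in siN and 1032 in siHoxa5 libraries and did not pass (log2 fold change -0.05, edgeR adjusted p = 0.749). Of 41 matrix ligands and basement membrane genes 16 were tested, with 2 higher and 2 lower (median 0.02). COL4A5, a chain of type IV collagen in the basement membrane, rose from 62.2 ± 13.4 to 91.2 ± 5.66 CPM (SD, n = 4 each; log2 fold change 0.55, edgeR adjusted p = 0.0412), and its 4 siHoxa5 libraries (85.5 to 98.4 CPM) were above all siN libraries (45.6 to 78.4). COL4A1, a type IV chain at a higher level, had 336 ± 10.7 and 322 ± 48.2 CPM and did not pass (log2 fold change -0.06, edgeR adjusted p = 0.775). COL1A1 rose by 0.21, and the integrin ligand FN1 and SPARC fell by 0.18 and 0.21 on the log2 scale. The groups overlapped for FN1 but not for COL1A1 and SPARC. For FN1, siHoxa5 library 1 (3323 CPM) lay above the highest siN library (3319), and siHoxa5 libraries 2 and 4 were the lowest (2712 and 2546).

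Of 38 genes of actomyosin and its regulators 26 were tested, with 1 higher and 2 lower (median -0.01). ARHGAP5, a GTPase-activating protein, rose from 713 ± 37.5 to 882 ± 28.6 CPM (SD, n = 4 each; log2 fold change 0.31, edgeR adjusted p = 0.000400). CDC42, a small GTPase of cell shape, had 2876 to 3031 CPM in siN libraries and 2517 to 2630 in siHoxa5 libraries, with no overlap, and fell by 0.22 on the log2 scale (adjusted p = 0.000934). PFN1, profilin 1, which feeds actin to growing filaments, fell by 0.21 (adjusted p = 0.00130), with 5273 to 6118 CPM in siN libraries and 4394 to 5119 in siHoxa5 libraries.

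**Figure D5:**
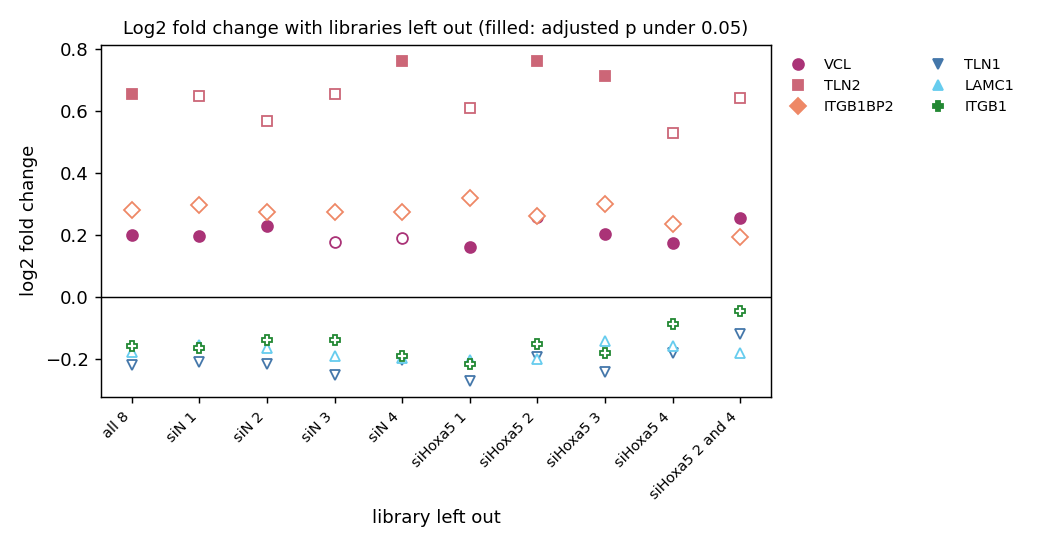
Log2 fold change (vertical axis) of 6 members in all 8 libraries and with libraries left out (horizontal axis); filled symbols passed the edgeR test, open symbols did not. VCL stayed between 0.16 and 0.26 and TLN2 between 0.53 and 0.76 with single libraries left out, while ITGB1 and TLN1 came nearest to 0 (-0.04 and -0.12) without siHoxa5 libraries 2 and 4.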

How the data were processed

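The authors deposited estimated counts for each gene symbol, without normalization; values are whole numbers except in 4 rows, which held some fractional values and were rounded. FastQC 0.11.8, STAR 2.6.1b, HTSeq, R 3.5.3 and the mm10 build are named, per the submitters' processing notes. Not given in the sources used here were annotation, strand setting and handling of multiply matching reads; this library kit marks no strand. Each library's own file matched its column in the series table. Of 33514 symbols 19 were spelled exactly as in the mouse annotation and 16245 matched it once case was ignored.

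Groups and repeat numbers came from the sample titles. Counts of all 8 libraries were tested with edgeR 4.0.16 (quasi-likelihood, robust; limma 3.58.1, R 4.3.3) after TMM scaling and filterByExpr (minimum count 10, minimum total 15), with no term besides the group. This left 3020 genes; p-values were adjusted over all of them by the Benjamini-Hochberg method, with a threshold of 0.05, and adjusted p-values in the text are from this test unless another tool is named. CPM use TMM-scaled library sizes. Intervals are exact and, like the floor of 3 counts, cover counting error only.

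In simulated counts for this comparison 3005 genes were tested, with 200 changed before the filter. Called were 28.0% of 50 genes changed 1.25-fold, 53.2% of 47 changed 1.5-fold and 95.7% of 46 changed 2-fold. Of 136 calls 7 were false. These figures hold for the simulated counts only and do not give the error rate of the measured calls. The simulation gave every gene the same variation beyond counting error, and its libraries differed only in their totals. In the measured counts siHoxa5 libraries 2 and 4 lay apart from siHoxa5 libraries 1 and 3 on the first principal component (10.8 and 11.0 against 2.74 and 4.69). How far such differences would change these figures was not tested. In the measured counts edgeR called 215 of 3020 genes and DESeq2 119 of 2493.

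Counts of members cover all of them, but the values of 2 are not reported here. The members and the lists were chosen with earlier results of these data known, so no test was made over a list. Named members are those with an unadjusted p under 0.05, the 3 with the highest mean CPM and the 2 tested ones with the highest mean CPM in each role; other members are given by their counts; from the 3 pathway lists up to 6 genes past the threshold are named. LAMA2, AP3M1, CREB3, ACTN4, COL4A1 and the genes at or near 0 were chosen after their values were seen. Alternatives were RLE, upper-quartile and no scaling, no filter and a minimum sum of 160, DESeq2 1.42.0, limma-voom, no robust estimation, a block by repeat number, removal of the length and GC trend (95.96% of tested genes had a length) and leaving out libraries.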

Additional observations from a re-analysis of the deposited data

Results flagged for a closer look

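ITGB1BP2 in siN library 1 (232 CPM) stood apart from the other siN libraries, which lay between 222 and 224 CPM, by the gap relative to the range of the group. It was the 1 group of 4 libraries set apart in this way among the 28 looked at (14 members, each in both groups), and chance gives about 1 in 20. Its distance from the siHoxa5 libraries (251 to 298 CPM) was larger than its distance from the other siN libraries.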

How the results depend on the processing

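The count of members past the threshold was 2 of 17 (VCL and TLN2), and the same 2 genes passed with RLE, upper-quartile and no scaling, the minimum sum of 160, limma-voom and no robust estimation. Removal of the length and GC trend also left 2, but these were VCL and ITGB1BP2 (0.40, adjusted p = 0.00637), while TLN2 (0.59, adjusted p = 0.0676) did not pass. The count was 1 without a filter (VCL; 22 members tested), 0 with DESeq2, 1 without siHoxa5 replicates 2 and 4 (VCL; chosen after seeing the data) and 0 to 2 with single libraries left out. Whether equal repeat numbers pair the libraries could not be settled from the counts. Between libraries of equal number, correlations of deviations from the group mean ranged from -0.02 to 0.07. Of the 4 siN libraries 2 were closest to their own number. With the replicate block the count of members was 2 (VCL and TLN2), and 250 of all 3020 genes passed, beside 215 without the block. With the length and GC trend removed as well, the count of members was 3. There VCL, ITGB1BP2 (0.40) and TLN1 (-0.27, adjusted p = 0.0481) passed and TLN2 did not. Log2 fold changes near 0 turned sign, for causes that were not tested. With single libraries left out, CRK ranged from -0.0199 to 0.0601, FLNA from -0.10 to 0.0758 and PARVA from -0.0520 to 0.17. Without siHoxa5 replicates 2 and 4, CRK had -0.0611, PARVA -0.0319, PTK2 -0.0120 and FLNA 0.17. FLNA had 0.00684 without a filter and 0.000212 with the minimum sum. VCL, TLN2, ITGB1BP2, ITGA7, CRKL and LAMA2 stayed above 0 and ITGB1, TLN1, LAMC1 and LAMB1 below 0 under every alternative run. Over all tested genes the standard error had a median of 0.17 (log2), and members with few counts, such as ITGA7 (SE 0.33), could show only large differences.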
